A study of Homo sapiens with 8 samples.

Results

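HCT15 colon cancer cells held 365 promoter regions that were listed as H3K27ac peaks in both libraries of the parental line and in neither library of the 5-fluorouracil (5-FU)-resistant cells, and that lay over no H3K23su region listed in the same way. They were drawn from 16748 autosomal promoter H3K27ac regions, which were in turn part of 133786 H3K27ac regions over the genome. To find them, peaks that overlapped or touched were merged per mark over its 4 lists, and a region counted as present in a library if a peak of that library shared at least 1 bp with it. A promoter region had its midpoint within 1 kb of a transcription start site (TSS) of a protein-coding transcript in GENCODE release 44 on hg19. In all, 541 promoter regions (3.23% of 16748) were in both HCT15-Pa lists and in no HCT15-FR list, and 176 of them overlapped an H3K23su region with that same pattern. The other 365 regions, called the selected promoters here, were therefore chosen on measured values of both marks. All counts of their peaks below are a description of that choice and carry no test.

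CUT&Tag, in which an antibody directs a transposase to a histone mark, was performed for H3K27ac and H3K23su in 2 lines with 2 libraries each, 8 in all. HCT15 is an established human colorectal adenocarcinoma line. HCT15-Pa is the parental line, labelled as treated with the solvent DMSO and grown without 5-FU, and HCT15-FR is its derivative maintained in 20 μg/ml 5-FU and kept without the drug for some days before the assays. HCT15-FR is a single resistant derivative of a single parental line, and nothing says that the 2 libraries of a group came from separate cultures, so differences between libraries may be technical. The question behind the comparison was which chromatin changes accompany resistance to 5-FU, a pyrimidine analogue that blocks thymidylate synthesis and is misincorporated into nucleic acids.

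Each library list held 65364 to 76676 peaks with a score, the −log10 P of the authors' peak caller, and no read counts, so the depth behind a peak was unknown. Because scores grow with depth, each was also ranked within its own list as a percentile, where 100 is the strongest peak. The H3K27ac lists of HCT15-FR covered 46.3 and 46.6 Mb and those of HCT15-Pa 39.5 and 38.8 Mb, so the regions missing in HCT15-FR were missing from the longer lists. With equal numbers of the strongest peaks taken from each list of a mark, 388 promoters were selected, which covered 358 of the 365, and 56.4% of them had no H3K23su. As a check of the cell type, 13 of 15 colon epithelial marker genes had a promoter H3K27ac peak in all 4 lists, among them EPCAM, CDH1, CDX2 and VIL1. KRT20 had it in none, and CDX1 in both HCT15-FR lists and neither HCT15-Pa list. Of 14 markers of other cell types, 2 (CD14 and COL1A1) had it in all 4 lists and 6, among them PTPRC, PECAM1 and ALB, in none. The rest had it in 1 or 2 lists. PDGFRB had it in both HCT15-FR lists alone, SOX10 in replicate 1 of each line and CD79A in HCT15-Pa replicate 1. CDH5, MYH11 and GFAP had it in HCT15-FR replicate 1.

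Acetylation of lysine 27 of histone H3 neutralises the charge of the residue, is deposited mainly by the acetyltransferases p300 and CBP, and marks active promoters and enhancers. Succinylation attaches a larger, negatively charged acyl group that derives from succinyl-CoA, a metabolite of the citric acid cycle, and has been found together with acetylation around the TSSs of active genes. Most promoters of widely expressed genes lie in CpG islands, stretches in which the CpG dinucleotide is not depleted, whereas promoters of genes restricted to certain tissues are often poor in CpG.

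The sequences upstream of 6 of the selected promoters show how far their base composition differed. Each is the 200 bp before the TSS, read 5′ to 3′ on the gene's strand from the GRCh37 (hg19) genome, and lies within the H3K27ac region and outside annotated exons. Capitals mark exact matches, on either strand, to any of 8 short motifs that are spelled out with the sequence results. The first 2 belong to genes whose peaks were strong for the set, NKX6-1, a homeodomain factor of pancreatic beta cells, and PTGER2, the prostaglandin E2 receptor EP2. Their windows held 17 and 21 CpG.
NKX6-1, chr4:85420446-85420645, minus strand: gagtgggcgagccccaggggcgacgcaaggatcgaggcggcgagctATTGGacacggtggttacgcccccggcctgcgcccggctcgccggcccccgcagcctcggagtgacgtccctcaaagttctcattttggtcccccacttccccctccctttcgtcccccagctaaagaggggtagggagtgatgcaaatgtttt
PTGER2, chr14:52780823-52781022, plus strand: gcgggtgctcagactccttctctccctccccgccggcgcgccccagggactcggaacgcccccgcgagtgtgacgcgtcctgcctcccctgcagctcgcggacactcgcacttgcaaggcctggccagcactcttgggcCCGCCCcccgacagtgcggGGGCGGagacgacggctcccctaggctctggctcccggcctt

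PDZK1IP1, a small membrane protein of epithelia, and LCN2, lipocalin 2, which binds bacterial siderophores, are shown because H3K23su was listed over them in all 4 libraries. Their windows held 7 CpG and 1 CpG.
PDZK1IP1, chr1:47655709-47655908, minus strand: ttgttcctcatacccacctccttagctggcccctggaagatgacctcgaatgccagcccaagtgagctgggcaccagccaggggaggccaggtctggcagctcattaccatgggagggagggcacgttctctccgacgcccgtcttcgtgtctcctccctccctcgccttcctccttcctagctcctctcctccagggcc
LCN2, chr9:130911150-130911349, plus strand: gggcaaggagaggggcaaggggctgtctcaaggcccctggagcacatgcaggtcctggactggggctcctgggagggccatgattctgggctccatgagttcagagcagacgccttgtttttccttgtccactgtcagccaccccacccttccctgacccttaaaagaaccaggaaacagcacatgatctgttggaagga

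ARHGAP32 is shown as a promoter where H3K23su was listed in HCT15-FR alone, and its window held 31 CpG at a GC content of 82.5%.
ARHGAP32, chr11:129149220-129149419, minus strand: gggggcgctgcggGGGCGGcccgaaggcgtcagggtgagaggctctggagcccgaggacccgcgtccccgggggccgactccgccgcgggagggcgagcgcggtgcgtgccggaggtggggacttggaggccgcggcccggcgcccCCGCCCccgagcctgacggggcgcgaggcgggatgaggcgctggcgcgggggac

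ELF3, an epithelial ETS-family factor, is shown as a gene of colon epithelial identity, and its window held 2 CpG at a GC content of 53.5%.
ELF3, chr1:201976873-201977072, plus strand: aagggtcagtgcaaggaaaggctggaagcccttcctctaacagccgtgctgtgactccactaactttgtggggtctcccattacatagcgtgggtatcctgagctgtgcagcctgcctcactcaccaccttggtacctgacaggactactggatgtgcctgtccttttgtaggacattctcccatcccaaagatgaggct

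Of the 365 selected promoters, 206 (56.4%, exact 95% interval 51.2 to 61.6%, counting error only) overlapped no H3K23su region of any library, so there was no H3K23su peak to keep or to lose. This share was 35.7% when a library counted only where its peaks covered at least 50% of a region, and 47.8% without the H3K27ac library HCT15-FR replicate 1. Only 23 (6.30%, interval 4.04 to 9.31%) lay over an H3K23su region present in all 4 lists, and 4 over a region of both HCT15-FR lists alone. The other 132 (36.2%) lay over regions of 1 to 3 lists in some other combination. Of the 11183 promoters with H3K27ac in all 4 lists, 88.1% had H3K23su in all 4 lists and 1.62% in none. Over all 16748 promoter H3K27ac regions the shares were 61.8% and 18.98%. Promoter H3K23su regions themselves were in both HCT15-Pa and no HCT15-FR list in 453 of 15705 cases (2.88%) and the other way round in 729 (4.64%). The selected promoters are therefore described here by the rule that chose them, not as promoters that kept H3K23su.

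**Figure D1:**
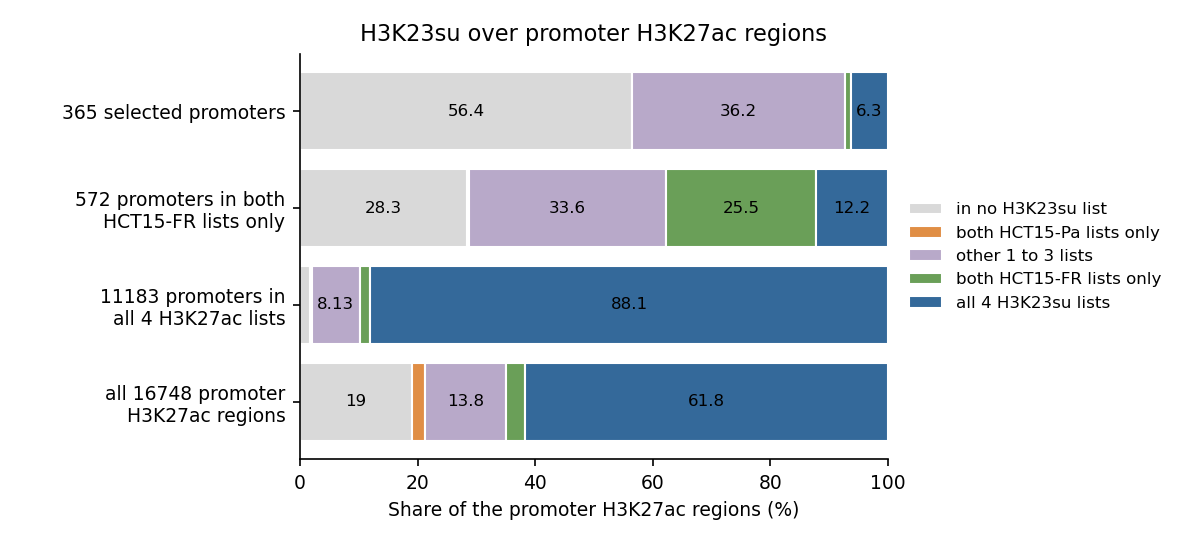
Share of promoter H3K27ac regions (horizontal axis, percent) by the H3K23su lists that their overlapping H3K23su regions appeared in, for the 365 selected promoters, the 572 promoters with H3K27ac in both HCT15-FR lists alone, the 11183 promoters with H3K27ac in all 4 lists and all 16748. The grey segment, no H3K23su in any list, takes 56.4% of the selected promoters and 1.62% of the promoters with H3K27ac in all 4 lists.

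Counted by library, an H3K23su region with a peak of that library lay over 103 and 95 of the selected promoters in the 2 HCT15-Pa lists and over 63 and 52 in the 2 HCT15-FR lists. As shares of 365 these were 28.2, 26.0, 17.3 and 14.2%, whereas over all 16748 promoter H3K27ac regions the shares were 70.1 and 70.4% in HCT15-Pa and 72.9 and 72.6% in HCT15-FR. The counts at the selected promoters carry no test, since the rule used these lists. Among the 159 with any H3K23su, 103 had it in more HCT15-Pa than HCT15-FR lists, 18 in more HCT15-FR lists and 38 in equal numbers. A single HCT15-Pa list held H3K23su at 75 promoters (38 in replicate 1 and 37 in replicate 2), and a single HCT15-FR list at 9. Both HCT15-FR lists held it at 34 promoters (9.32%). At 3 promoters, FTCDNL1 among them, both HCT15-Pa lists and no HCT15-FR list held H3K23su in separate regions, each of 1 list, which the rule did not count as a loss. Besides the 23 over a region of all 4 lists, 2 promoters had H3K23su in all 4 lists without any single region of all 4.

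The promoters with the converse pattern give a point of comparison. Of the 572 promoters with H3K27ac in both HCT15-FR lists alone, 418 lay over no H3K23su region of both HCT15-FR lists alone. Of those 418, 162 (38.8%) had no H3K23su in any list and 68 (16.3%) had it in all 4, against 56.4% and 6.30% of the selected promoters. No test was made of this difference, since both sets were chosen on the same lists.

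The H3K27ac peaks of the selected promoters ranked low in the HCT15-Pa lists. Their median score was 4.0 in replicate 1 and 4.14 in replicate 2, which were the 39.8th and 43.1st percentiles of those lists. Presence in these lists was part of the rule, so the ranks describe the choice and are no measured level of acetylation. By the weaker of its 2 peaks, the median selected promoter stood at percentile 29.9 (quartiles 13.7 and 47.5), against 59.4 for the 176 promoters that also lost H3K23su and 85.2 for promoters in all 4 lists. Only 80 (21.9%) had a weaker peak above the 50th percentile, and 65 had one below the 10th. Their regions were short, with a median of 527 bp, where those of the 176 measured 862 bp and those in all 4 lists 1350 bp. Short regions were not particular to them, since promoters with H3K27ac in both HCT15-FR lists alone had a median of 543 bp.

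**Figure D2:**
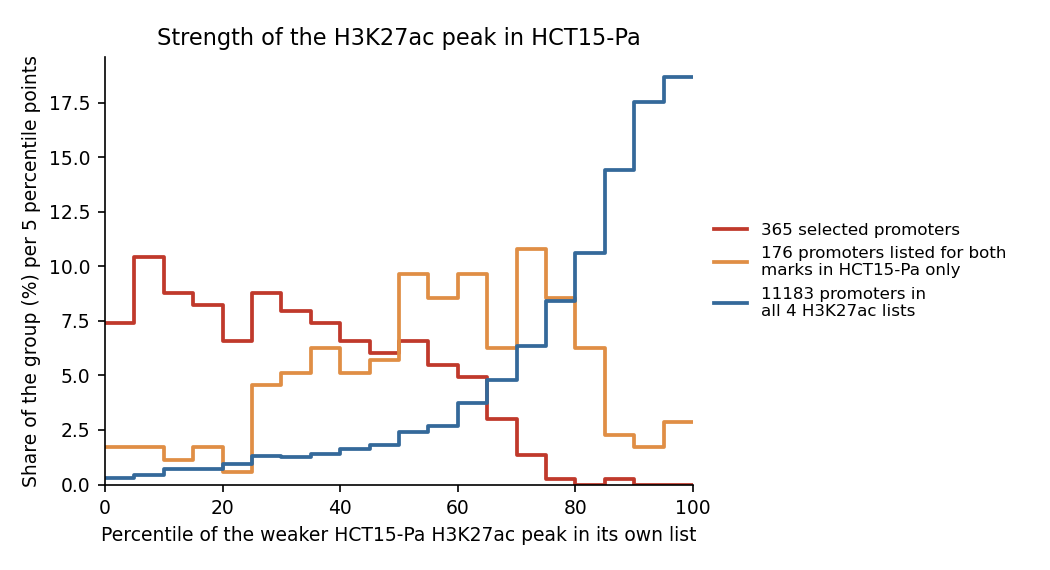
Percentile of the weaker HCT15-Pa H3K27ac peak within its own list (horizontal axis) against the share of each group per 5 percentile points (vertical axis, percent). The selected promoters (red) have a median of 29.9, the 176 promoters listed for both marks in HCT15-Pa alone (orange) 59.4, and promoters in all 4 lists (blue) 85.2.

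Peak strength and H3K23su went together at promoters in general, so the H3K23su shares were also compared within bands of 25 percentile points. In the lowest band, 64.2% of 151 selected promoters and 14.2% of 344 promoters in all 4 H3K27ac lists had no H3K23su. From percentile 25 to 50 the shares were 55.2% of 134 and 8.73% of 825, and from 50 to 75 they were 44.9% of 78 and 1.83% of 2238. H3K23su in all 4 lists was found at 7.28%, 4.48% and 7.69% of the selected promoters in these bands and at 38.7%, 54.5% and 78.0% of the others. The comparison is no test, since the bands were set after the values were seen and the rule had removed promoters with H3K23su from 1 group. The bands also did not match the width of the regions, with medians of 527 bp for all selected promoters and 1350 bp for the others. A wider region has more room for an overlap of 1 bp. In the highest band there were only 2 selected promoters.

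**Figure D3:**
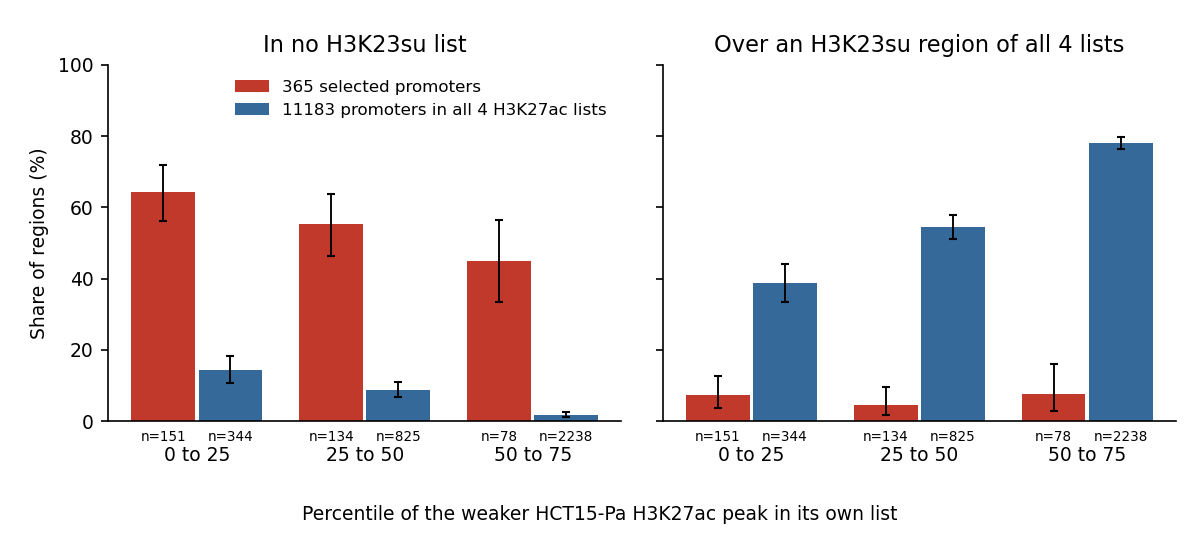
Share of promoters (vertical axis, percent) with no H3K23su (left) and with H3K23su in all 4 lists (right), by band of 25 percentile points of the weaker HCT15-Pa H3K27ac peak. Red bars are the selected promoters and blue bars the promoters with H3K27ac in all 4 lists, with the number of regions under each bar. The exact 95% binomial intervals cover counting error only, and the groups were chosen on these lists and not matched for width. The highest band, with 2 selected promoters, is not drawn, and 64.2% against 14.2% had no H3K23su in the lowest.

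The count of selected promoters depended on the second library of each group. Asking for 1 H3K27ac library of HCT15-Pa in place of 2 gave 1173 without replicate 1 and 1222 without replicate 2, and dropping HCT15-FR replicate 1 gave 577. The thresholds also had many regions close to them. In 408 promoter regions H3K27ac was in both HCT15-Pa lists and in just 1 HCT15-FR list, where the HCT15-FR peak had a median score of 3.93 at percentile 30.6, and 1620 promoter regions were in 1 HCT15-Pa list alone. The lowest score of a selected promoter was 3.01. At the 1 kb limit the last regions inside were at TMEM121B, 998 bp from its TSS, and FEZF1, 996 bp, and the first outside was at RFC4, 1006 bp. If TSSs were limited to the 5′ ends of genes, 221 were selected.

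The strongest selected promoter was that of FMN1, a formin that nucleates actin filaments, whose H3K27ac peaks scored 8.54 and 9.39 in the 2 HCT15-Pa lists (percentiles 87.9 and 89.7). Its only H3K23su peak, in HCT15-Pa replicate 2, scored 3.68. The nearest HCT15-FR H3K27ac peak lay 4331 bp away, and FMN1 kept an H3K27ac region of all 4 lists at another TSS. NKX6-1 followed, at H3K27ac scores of 6.56 and 7.35. It had H3K23su in HCT15-Pa replicate 1 alone, at 3.55, and the nearest H3K27ac peak of HCT15-FR lay 82677 bp away. Both genes therefore had a clear acetylation peak in the parental line beside a marginal, single-library succinylation peak.

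MCOLN3, a lysosomal cation channel, scored 5.70 and 5.53 for H3K27ac with no H3K23su in any list, and the nearest HCT15-FR peak was 1031 bp away. FOXD3, a forkhead factor of the neural crest, scored 5.39 and 7.14 with no H3K23su, and its nearest HCT15-FR peak was 35101 bp away. Both were also among the strongest of the 206 promoters with no H3K23su.

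Others among the 6 strongest of that group were PLA2G4C, a cytosolic phospholipase A2, at H3K27ac scores of 6.92 and 5.41, PTGER2 at 5.27 and 7.73, and CHRFAM7A, a partial duplicate of an acetylcholine receptor gene, at 5.02 and 5.91. Since only uniquely mapped reads were kept, reads that CHRFAM7A shares exactly with the gene it was copied from would be missing from both, so its peak is uncertain. At PTGER2 the nearest HCT15-FR peak was 28442 bp away, and at PLA2G4C 2598 bp.

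The other promoters described among the strongest 10 differed in how their H3K23su was spread. ANKRD35, an ankyrin repeat protein, had H3K27ac scores of 7.35 and 5.60 and a strong H3K23su peak in HCT15-Pa replicate 1 alone, at 6.29 (percentile 88.05). FTCDNL1 had H3K27ac at 5.53 and 5.61 and H3K23su at 3.55 and 4.84 in the 2 HCT15-Pa lists. TOMM20L, which is related to the mitochondrial import receptor TOMM20, had H3K27ac at 6.01 and 5.55, and H3K23su at 5.07 and 5.12 in HCT15-Pa and 4.19 in HCT15-FR replicate 2. The rule counted these promoters as not having lost H3K23su, yet all 3 had it in more HCT15-Pa than HCT15-FR lists. TMEM265 had H3K27ac scores of 5.74 and 10.5 and H3K23su of 3.58, 3.40 and 4.15 in both HCT15-Pa lists and HCT15-FR replicate 1. INF2, an inverted formin that remodels actin, had H3K27ac at 5.42 and 6.62, with H3K23su at 3.70 in HCT15-Pa replicate 1 and 3.67 in HCT15-FR replicate 2. TMEM265 and INF2 each had another H3K27ac region of both HCT15-FR lists within 1 kb of the TSS, at 648 and 505 bp from the selected one.

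**Figure D4:**
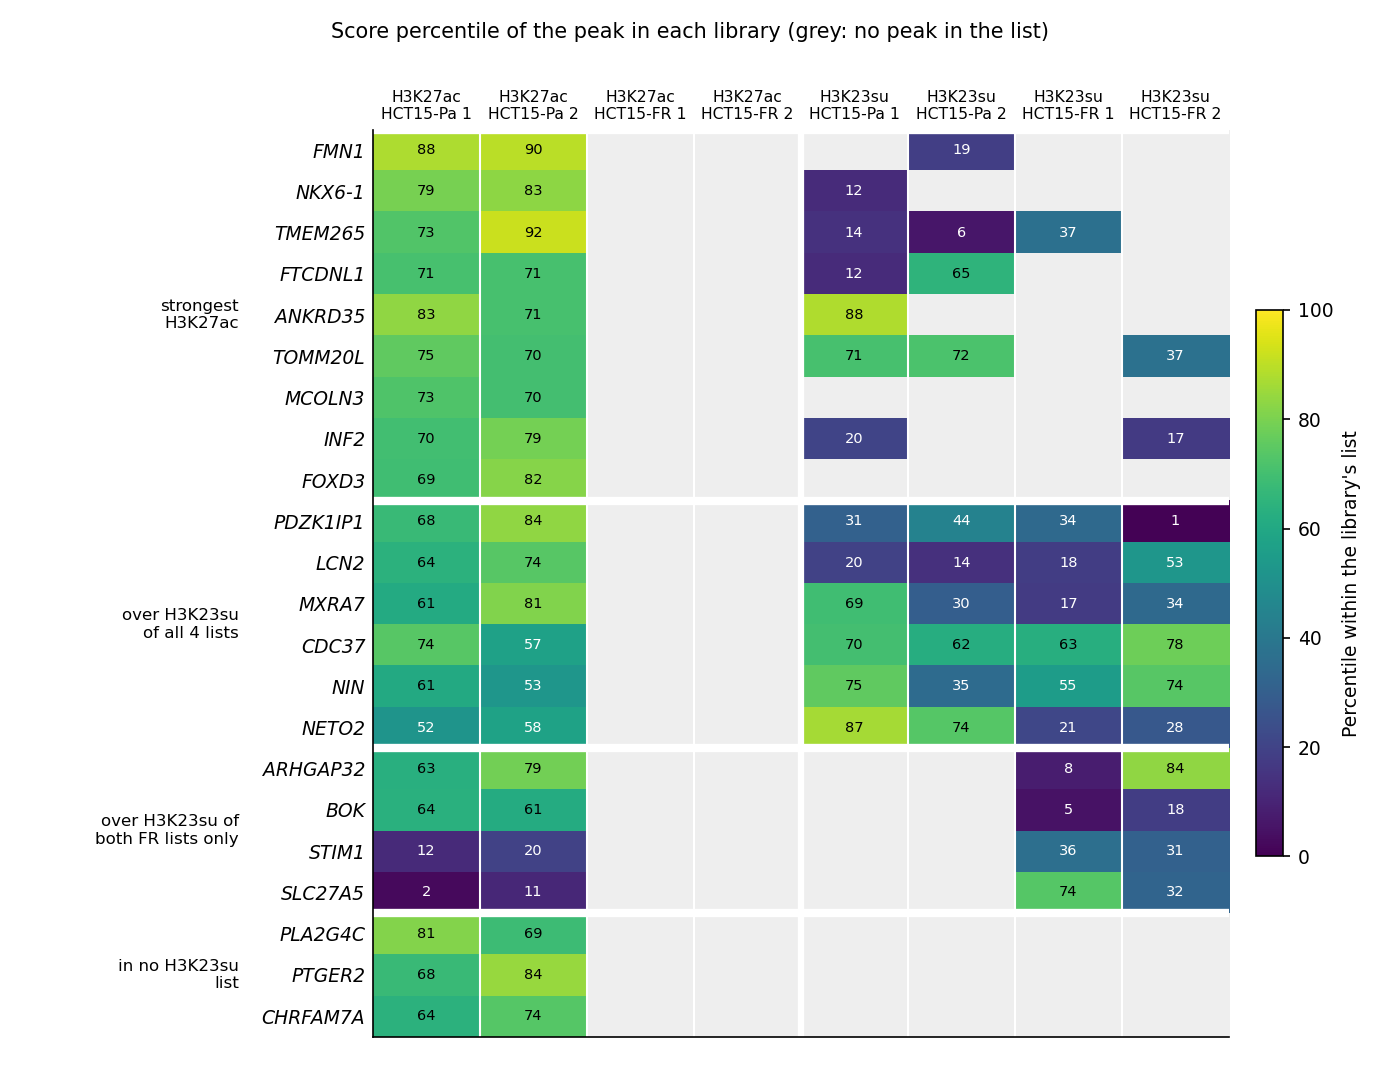
Percentile of the peak within each library's list (colour and printed number) for 22 selected promoters in the 8 libraries, grouped by the rule that named them. Grey cells have no peak. The 2 H3K27ac columns of HCT15-FR are empty by selection. In those with the strongest H3K27ac, H3K23su ranges from no list (MCOLN3 and FOXD3) to 3 lists (TMEM265 and TOMM20L).

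The 23 selected promoters over an H3K23su region of all 4 lists are those that fit the description of H3K27ac lost and H3K23su kept. Their H3K23su regions were wider than the H3K27ac regions, with medians of 1169 and 433 bp. These widths are unlike measures, since the H3K23su regions joined peaks of 4 lists and the selected H3K27ac regions peaks of 2. The marks also differed in peak calling, with broad peaks for H3K27ac. H3K23su peaks covered a median 54.9 and 53.7% of the selected stretch in HCT15-Pa and 34.3 and 47.5% in HCT15-FR. The median percentile of the H3K23su peak was 51.9 and 56.5 in HCT15-Pa and 35.2 and 35.0 in HCT15-FR. For the 10227 promoter H3K23su regions of all 4 lists it was 85.4 in both HCT15-Pa lists and 87.4 and 87.2 in HCT15-FR. These ranks describe 23 promoters chosen on the same lists, which differ in length, and measure no change of the mark. The share of these promoters was 13.7% without the H3K27ac library HCT15-FR replicate 1, 11.4% without replicate 2 and 10.5% without the H3K23su library HCT15-FR replicate 2.

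Of the 23, 8 had another H3K27ac region of both HCT15-FR lists within 1 kb of the TSS, and at 5 the H3K23su region also overlapped an H3K27ac region of all 4 lists. Neither held for 15. PDZK1IP1 was the strongest of the 15, with H3K27ac scores of 5.27 and 7.51 in HCT15-Pa, although a region of both HCT15-FR lists lay within 2 kb of its TSS and the nearest HCT15-FR peak 605 bp from the selected stretch. Its H3K23su scored 3.91 and 4.21 in HCT15-Pa and 4.09 and 3.09 in HCT15-FR, but the peaks covered 100 and 79.1% of the selected stretch in HCT15-Pa and only 2.78 and 27.5% in HCT15-FR. LCN2 had H3K27ac at 5.03 and 5.95 and H3K23su at 3.69 and 3.58 in HCT15-Pa and 3.69 and 4.68 in HCT15-FR. Its H3K23su peaks covered 53.5 and 98.1% of the selected stretch in HCT15-Pa and 34.3 and 40.1% in HCT15-FR, and the nearest HCT15-FR H3K27ac peak was 1923 bp away.

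NIN, which encodes the centrosomal protein ninein, had H3K27ac at 4.82 and 4.48 and H3K23su at 5.30, 4.01, 4.76 and 5.75 in the order HCT15-Pa 1 and 2 and HCT15-FR 1 and 2. CDC37, the Hsp90 cochaperone of kinases, had H3K27ac at 5.84 and 4.68 and H3K23su at 5.04, 4.73, 5.09 and 6.04 in that order. At CDC37 the selected region lay 822 bp downstream of the TSS in an intron, and an H3K27ac region of all 4 lists was under the same H3K23su region. NETO2, an auxiliary subunit of kainate receptors, had H3K27ac at 4.40 and 4.71 and H3K23su at 6.12, 5.21, 3.76 and 3.94. Both of its HCT15-FR H3K23su peaks thus scored below both HCT15-Pa peaks. The H3K23su peaks of NETO2 covered 36.2, 33.6, 0 and 77.9% of the selected stretch in that order. MXRA7, named for matrix remodelling, had H3K27ac at 4.82 and 7.002 and H3K23su at 5.00, 3.89, 3.67 and 4.11. Coverage of its selected stretch by H3K23su was 33.3, 0, 77.2 and 100%. Where coverage was 0%, the library counted only because its peak belonged to the merged H3K23su region. CDC37, NETO2 and MXRA7 had H3K27ac of both HCT15-FR lists within 1 kb of the same TSS, and PDZK1IP1, LCN2 and NIN did not.

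At 4 selected promoters, H3K23su lay solely in regions of both HCT15-FR lists and neither HCT15-Pa list, the opposite of the H3K27ac pattern. At 1 more, H3K23su was also in both HCT15-FR lists alone, but over more than 1 region. That promoter is counted with the other combinations. ARHGAP32 had H3K27ac scores of 4.94 and 6.60 in HCT15-Pa and H3K23su scores of 3.45 and 6.63 in HCT15-FR. The HCT15-FR H3K23su peaks covered only 11.04 and 0% of the acetylated stretch there, so the marks adjoined more than they overlapped. BOK, a Bcl-2 family protein that promotes apoptosis, had H3K27ac at 4.97 and 4.90 and H3K23su at 3.34 and 3.70 that covered 90.2 and 51.1% of it. STIM1, the calcium sensor of the endoplasmic reticulum, had H3K27ac at 3.35 and 3.55 and H3K23su at 4.14 and 4.02. SLC27A5, which activates bile acids with coenzyme A, had H3K27ac at 3.16 and 3.35 and H3K23su at 5.70 and 4.05. In STIM1 and SLC27A5 the H3K27ac peaks that made up the selection were among the weakest of their lists, at percentiles 12.05 and 2.37 for the weaker peak.

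A promoter can also keep acetylation beside the stretch that was lost. Another H3K27ac region of both HCT15-FR lists reached within 1 kb of the TSS at 33 selected promoters (9.04%, exact interval 6.31 to 12.5%) and within 2 kb at 56 (15.3%). The first share was 2.03% when peaks within 500 bp of each other were merged, and 19.6, 15.7, 15.3 and 14.3% when HCT15-FR replicate 1, HCT15-FR replicate 2, HCT15-Pa replicate 1 or HCT15-Pa replicate 2 of H3K27ac was left out. The nearest HCT15-FR H3K27ac peak of either replicate was a median of 4397 bp away (quartiles 1363 and 16515 bp), and at 58 promoters (15.9%) it was within 500 bp. The 365 selected promoters had 359 closest genes, of which 96 (26.7%) had an H3K27ac region of all 4 lists at another of their TSSs. For those genes H3K27ac remained listed at another promoter. No such shares are given for other genes or promoter regions, so the counts in this paragraph cannot be called high or low.

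STIM1 illustrates this, with 2 selected regions at different TSSs and an H3K27ac region of all 4 lists at another TSS. The stronger of them had H3K23su in all 4 lists and the other in HCT15-FR alone. AMN, CD1D and TNK2 also had 2 selected regions at different TSSs, and MKX and SIGIRR had 2 at a single TSS. CD1D, which presents lipid antigens, had no H3K23su at its first promoter, at percentile 36.0 for the weaker H3K27ac peak, and H3K23su in some lists at the second, at 20.4. The 2 regions at MKX, a homeobox gene of tendon, had no H3K23su.

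The selected regions lay mostly inside genes. Introns held the midpoint of 160 (43.8%), untranslated exon sequence 82, intergenic sequence 59, coding exons 34 and exons of noncoding transcripts 30. No such shares are given for other promoter regions, so these counts do not set the selected ones apart. The midpoint was within 1 kb of the annotated 5′ end of the gene in 212 (58.1%), against 65.0% of all promoter H3K27ac regions and 74.2% of those in all 4 lists. For promoters with H3K27ac in both HCT15-FR lists alone it was 40.4%. Midpoints were spread evenly about the TSS, with 51.0% downstream of it, whereas 61.0% of all promoter regions and 68.8% of the 176 that lost both marks lay downstream. More than 500 bp separated midpoint and TSS in 83 (22.7%), compared with 18.2% of all promoter regions. Promoters with H3K27ac in both HCT15-FR lists alone were alike in this, with 51.4% downstream and 28.5% more than 500 bp away.

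The selected promoters spread over low and high CpG content. In the 300 bp about the midpoint, the ratio of observed to expected CpG had a median of 0.574. It was 0.727 at the 176 promoters that lost both marks and 0.783 at promoters in all 4 lists. At promoters with H3K27ac in both HCT15-FR lists alone it was lower, 0.283. Both a ratio above 0.6 and a GC content above 50% were found in 46.3% of the selected promoters, against 58.9% of all promoter regions. Among promoters of both HCT15-FR lists alone the share was 18.4%. Within the set, the 206 without H3K23su had a median ratio of 0.644 and the 23 with H3K23su in all 4 lists 0.273. In the printed windows, which lie before the TSS, PTGER2 (no H3K23su) held 21 CpG and LCN2 and PDZK1IP1 (H3K23su in all 4 lists) 1 and 7. The windows of CDC37 and NETO2, also with H3K23su in all 4 lists, held 22 and 38 CpG, with the selected regions 822 and 546 bp from the TSS. The intermediate patterns went both ways, since ELF3 and NKX6-1, each with H3K23su in HCT15-Pa replicate 1 alone, held 2 and 17 CpG and ARHGAP32, with H3K23su in HCT15-FR alone, held 31.

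**Figure D5:**
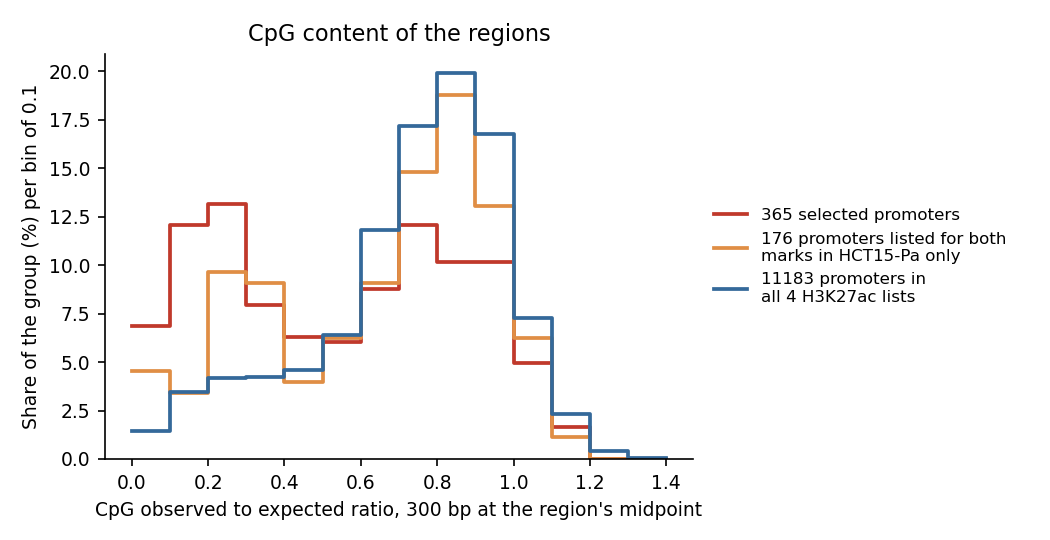
Ratio of observed to expected CpG in the 300 bp about the midpoint (horizontal axis) against the share of each group per bin of 0.1 (vertical axis, percent). The selected promoters (red) spread over low and high ratios with a median of 0.574, while promoters with H3K27ac in all 4 lists (blue) peak between 0.8 and 0.9 with a median of 0.783.

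The 8 motifs were searched as exact letters on both strands of the same 300 bp, each on its own, and a match describes the letters and not a bound site. The GC box GGGCGG was present in 43.8% of the selected promoters and 53.1% of all promoter H3K27ac regions, and the ETS core CCGGAAG in 4.11 and 8.60%. In promoters with H3K27ac in both HCT15-FR lists alone the GC box was present in 24.0% and the ETS core in 3.50%. The AP-1 site TGACTCA was present in 6.58 and 4.35%, in 1.70% of the 176 that lost both marks, and in 12.8% of promoters with H3K27ac in both HCT15-FR lists alone. Shares were close for the TEAD core GGAATG, at 11.8% in both, the E-box CACGTG at 6.30 and 6.39%, the cyclic AMP response element TGACGTCA at 1.10 and 1.04%, the NRF1 core GCGCATGC at 1.37 and 1.75%, and the CCAAT box at 19.5 and 22.5%. Among the printed windows, PTGER2 and ARHGAP32 held 2 GC boxes each, NKX6-1 held a CCAAT box, and PDZK1IP1, LCN2 and ELF3 held none of the 8.

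The selected promoters were set beside lists of genes from pathways that bear on 5-FU and on this tissue. Of 13806 genes with a promoter H3K27ac region, 373 (2.70%) had a selected promoter within 1 kb of one of their TSSs, and the lists are to be read against that share. No gene had one among the 30 measured genes of 5-FU and pyrimidine metabolism, the 26 of base excision and mismatch repair, the 24 of the Hippo pathway and its TEAD factors, and the 31 of glutathione metabolism and ferroptosis. None of the 8 measured markers of other cell types had one either. Lists of these sizes would hold less than 1 gene each at the background share, so these zeros describe the lists and show no depletion.

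The colon epithelial identity list held 2 of 18, of which ELF3 is described. ELF3 had H3K27ac scores of 4.74 and 5.77 and kept an H3K27ac region of all 4 lists at another TSS. The list of histone acyl writers and erasers held 2 of 35, the class IIa deacetylases HDAC7, at 4.26 and 3.81, and HDAC9, at 3.92 and 5.06. They differed in surroundings: the nearest HCT15-FR H3K27ac peak lay 4159 bp from the HDAC7 region and 329954 bp from the HDAC9 region. HDAC7 kept an H3K27ac region of all 4 lists at another TSS, and HDAC9 did not. Only HDAC7 had H3K23su, at 4.53 and 4.88 in HCT15-Pa and 3.53 in HCT15-FR replicate 2.

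The apoptosis list held 2 of 34, BOK and CASP10, an initiator caspase with H3K27ac at 4.33 and 4.31 and H3K23su at 3.90 in HCT15-Pa replicate 1 alone. Single genes came from the HIF-1 and glycolysis list (VEGFA, the endothelial growth factor, 1 of 32, at 4.05 and 4.15), the Wnt list (TCF7L2, the factor that binds beta-catenin, 1 of 28, at 4.02 and 3.90) and the adhesion and matrix list (ITGA1, a collagen-binding integrin, 1 of 31, at 3.94 and 4.43). VEGFA and TCF7L2 kept an H3K27ac region of all 4 lists at another TSS, while ITGA1 and CASP10 did not. VEGFA also had another H3K27ac region of both HCT15-FR lists within 1 kb of the same TSS. Genes with symbols starting with ZNF had 6 of 391 (1.53%), and those starting with SLC, the solute carriers, 11 of 258 (4.26%), on either side of the background share.

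Over all genes, the number of genes with a promoter peak gave the scale against which the 365 are read. A gene counted if the midpoint of a peak lay within 1 kb of one of its TSSs. H3K27ac peaks had median widths of 483 and 467 bp in HCT15-FR and 403 bp in both HCT15-Pa lists. For H3K23su these were 451 and 447 bp against 387 and 386 bp. A wide peak can cover a TSS with its midpoint farther off, so an uncounted gene need not lack the mark. H3K27ac peaks were found at the promoters of 12661 and 12625 genes in HCT15-Pa (12643 ± 25.5, SD, n = 2) and of 12429 and 12367 in HCT15-FR (12398 ± 43.8, n = 2). H3K23su peaks were found at 11477 and 11511 in HCT15-Pa (11494 ± 24.0, n = 2) and 11643 and 11591 in HCT15-FR (11617 ± 36.8, n = 2). The lines did not overlap in either mark, with H3K27ac peak midpoints at the promoters of fewer genes in HCT15-FR and H3K23su midpoints at those of more. The two-sided exact permutation test gave p = 0.33 for each, the smallest that 2 libraries against 2 allow, so no difference could pass the test. Over the whole autosomal genome, 5884 of 131284 H3K27ac regions (4.48%) were in both HCT15-Pa lists alone and 11857 (9.03%) in both HCT15-FR lists alone. At promoters the 2 classes were closer in size, with 541 and 572 regions.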

How the data were processed

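CUT&Tag for H3K27ac and H3K23su was analysed from 8 deposited peak lists, 1 per library, 2 libraries per mark and line. Per the study's methods, the authors aligned reads to hg19 with Bowtie2, called peaks per library with MACS2 (broad peaks for H3K27ac) and annotated them with HOMER 4.10, as named in the submitters' processing notes too. The deposited values are scores in −log10 P per peak, with no read counts, and a score depends on depth, which the files do not give. Duplicates had been removed and only reads mapped uniquely and in proper pairs were used, so near-identical gene copies can lack reads. All chromosome names of the lists occurred in the GRCh37 reference, and no peak ran past a chromosome end.

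Regions, percentiles within a list (mid-rank), TSS distances, H3K23su states, base composition and motif matches were computed in Python 3.11.15 with numpy 2.4.6, pandas 2.3.3 and scipy 1.17.1, and figures were drawn with matplotlib 3.10.9. The merging and selection were tested on simulated peak lists. Regions of the sex chromosomes were left out. A promoter takes the gene of its closest TSS, and overlap means at least 1 bp. Intervals are exact binomial at 95% and cover counting error only. The only tests are two-sided exact permutation tests of the number of genes with a promoter peak, 2 libraries against 2.

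Named genes were the 10 selected promoters whose weaker HCT15-Pa H3K27ac peak ranked highest, the 6 highest over H3K23su of all 4 lists, all over H3K23su of both HCT15-FR lists alone, the 6 highest with no H3K23su, those in 13 gene lists (counts for ZNF and SLC symbols), and those at the 1 kb limit. Some items that this rule named are not reported here. Genes with 2 selected regions were named after their values were seen. The members and lists were chosen with earlier results of these data known. Alternatives were the upper 50% of peaks by score, lists of equal length, 1 minimum score shared by all lists of a mark, merging within 500 bp, a region covered to at least 50% by peaks, promoter windows of 500 bp, 2 kb or any base within 1 kb, gene 5′ ends in place of all TSSs, leaving out each library, and a replicate block.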

Additional observations from a re-analysis of the deposited data

Results flagged for a closer look

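The number of genes with a promoter peak, counted by the midpoint of the peak, moved in opposite directions for the marks. H3K27ac was at the promoters of 245 fewer genes in HCT15-FR than in HCT15-Pa (a mean difference of -245 genes). Both HCT15-FR libraries were below both HCT15-Pa libraries. H3K23su was at the promoters of 123 more genes, with both HCT15-FR libraries above both HCT15-Pa libraries. Merged promoter regions of H3K27ac did not show the same direction, with 541 in both HCT15-Pa lists alone and 572 in both HCT15-FR lists alone. The difference between the marks was not tested.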

How the results depend on the processing

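The selected promoters as a set depended on which peaks were counted. With the stronger 50% of each list, 322 promoters were selected, of which the sets shared 73 (20.0% of the 365), the share with no H3K23su was 50.6%, and the median H3K27ac percentile, as the mean of both HCT15-Pa lists, was 66.2 in place of 41.4. Counting a library only where its peaks covered at least 50% of a region gave 35.7% with no H3K23su and a median percentile of 50.5. With gene 5′ ends alone, 221 promoters were selected and 62.9% had no H3K23su. The share with other HCT15-FR H3K27ac within 1 kb of the TSS was 2.03% when peaks within 500 bp were merged and 14.3% for a promoter window of 2 kb. Leaving out 1 library at a time gave 320 to 1222 selected promoters, 6.14 to 13.7% with H3K23su in all 4 lists, 47.8 to 77.1% with no H3K23su, 8.88 to 19.6% with other HCT15-FR H3K27ac within 1 kb, and a median percentile of 29.6 to 44.1. The cause of these shifts was not tested.

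The number of genes with a promoter peak kept its direction in both marks under every alternative run for it. It ranged from -342.5 to -214 for H3K27ac and from 30 to 493.5 for H3K23su. Counting any base of a peak within 1 kb, or merged peaks, was not run for it, so the part played by peak width was not tested. With the replicate block, in which libraries of the same number were paired, the differences were -245 and 123, each with p = 0.5 in an exact sign-flip test, the smallest that 2 pairs allow. Nothing says that a number marks a shared culture. Without read counts, a missing peak cannot be told from a peak just under the caller's limit.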

Other observations

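Other H3K27ac regions of both HCT15-Pa lists alone lay within 50 kb of 132 selected promoters (36.2%), against 27.4% of all promoter H3K27ac regions, and regions of both HCT15-FR lists alone within 50 kb of 159 (43.6%), against 51.3%. Selected promoters were found on all 22 autosomes. Chromosome 1 held the most, 48, which were 2.80% of its promoter H3K27ac regions. The share was highest on chromosome 13, at 4.14%, and lowest on chromosome 17, at 0.948%. No test was made of these shares, which describe regions chosen on the same lists.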
